A study of Mus musculus with 2 samples.

Results

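The genes described here are those of the mitochondrial respiratory chain and ATP synthase, read in droplet-based scRNA-seq of endothelial cells (ECs) from mouse tumours. They were taken by symbol as every listed gene beginning with mt-, Nduf, Uqcr, Cox4i, Cox5, Cox6, Cox7, Cox8 or Atp5, together with Sdha, Sdhb, Sdhc, Sdhd and Cyc1. This gave 102 of the 17139 genes listed in both libraries. They comprised 13 mitochondrially encoded genes, 80 nuclear subunits, 8 complex I assembly factors named Ndufaf, and Atp5s, a coupling factor. The nuclear subunits fell into 36 of complex I, 4 of complex II, 9 of complex III, 16 of complex IV and 15 of complex V, with Ndufa4 and Ndufa4l2 counted in complex IV, where their proteins sit.

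The ECs came from LLC tumours, a Lewis lung carcinoma line, grown subcutaneously in C57BL/6J mice (C57BL/6 in the labels) that were male and 8 to 9 weeks old at implantation. One group was a tumour injected with PBS and the other a tumour injected with cGAMP, the cyclic dinucleotide ligand of STING, 13 days after implantation and at 14 µg in 70 µl. The methods give sampling at 24 h and another passage of the study gives 6 h for the same data. Live cells positive for CD31 and negative for CD45 were sorted, and each group was 1 library from 1 mouse, so that nothing below has a replicate check and no test was made. The comparison asks how ECs of a tumour differ after STING activation. The mouse, the tumour, the sort, the library and the treatment cannot be told apart.

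The PBS library held 2517 ECs and 92081146 UMIs, with a median of 29780 UMIs per cell, and the cGAMP library 1340 ECs and 63366746 UMIs, with a median of 41178. Only 1 cell barcode occurred in both. All 9 endothelial markers were found in both libraries, at a summed 5446 CPM (counts per 1000000 UMIs of its library) in PBS-treated and 6204 CPM in cGAMP-treated ECs. The higher sum came from Egfl7, at 1182 and 2122 CPM, and Emcn, at 575 and 952 CPM. Pecam1, Cdh5, Kdr, Tie1, Tek, Cldn5 and Ptprb were lower in the cGAMP library, at log2 ratios of -0.52 to -0.10. Leucocyte markers summed to 15.4 and 41.5 CPM over the 9 of 11 that were listed, none of them at 0 in either library, and the highest single marker reached 7.45 and 12.6 CPM. Fibroblast and mural markers, 8 of 8 listed, summed to 21.7 and 11.8 CPM with 1 marker at 0 in the cGAMP library. The 4 tumour epithelial markers summed to 2.15 and 0.39 CPM with 2 of them at 0 there. The 2 erythroid markers had the highest of these sums in both libraries, at 84.2 and 57.7 CPM. Hba-a1 was at 19.7 and 18.6 CPM and Hbb-bs at 64.5 and 39.1 CPM. Of 2 nuclear RNAs that gain share when cytoplasmic RNA is lost, Malat1 was at 10438 and 10940 CPM (log2 ratio 0.07) and Neat1 at 642 and 504 CPM (log2 ratio -0.35), so that they differed in direction.

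The respiratory chain passes electrons from NADH (complex I) and succinate (complex II) through complex III and cytochrome c to oxygen at complex IV, and the proton gradient so formed drives ATP synthesis by complex V. Complexes I, III, IV and V are built from subunits of both genomes. The mitochondrial genome supplies the core membrane subunits from polycistronic transcripts that are cut at the tRNAs between genes, whereas all of complex II and every other subunit is transcribed in the nucleus and imported. ECs are known to draw much of their ATP from glycolysis, with mitochondria serving also in biosynthesis and signalling.

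The share of the mitochondrially encoded genes was lower in the cGAMP-treated ECs, while the share of the nuclear subunits was close to level. The 13 mitochondrial genes took 4.51% of all UMIs of PBS-treated and 2.92% of those of cGAMP-treated ECs, a log2 ratio of cGAMP over PBS of -0.63 with a 95% interval of -0.63 to -0.62. This interval, like those of genes and sums below, is exact for Poisson counts or derived from it and covers counting error only. An interval of a median is instead taken from order statistics over the genes. The 80 nuclear subunits took 2.19% and 2.25% of the UMIs, a log2 ratio of 0.04. Counts per cell also carry the difference in depth, as all genes together had a mean of 36584 UMIs per cell with PBS and 47289 with cGAMP. In UMIs per cell the 2 genomes differed in direction, with a mean of 1650 mitochondrial UMIs in a PBS-treated and 1382 in a cGAMP-treated cell, against 801 and 1066 UMIs of nuclear subunits. There were thus 2.06 mitochondrial UMIs for each nuclear subunit UMI with PBS and 1.30 with cGAMP, 1.59-fold fewer. That ratio does not depend on how the libraries are scaled to each other.

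**Figure D1:**
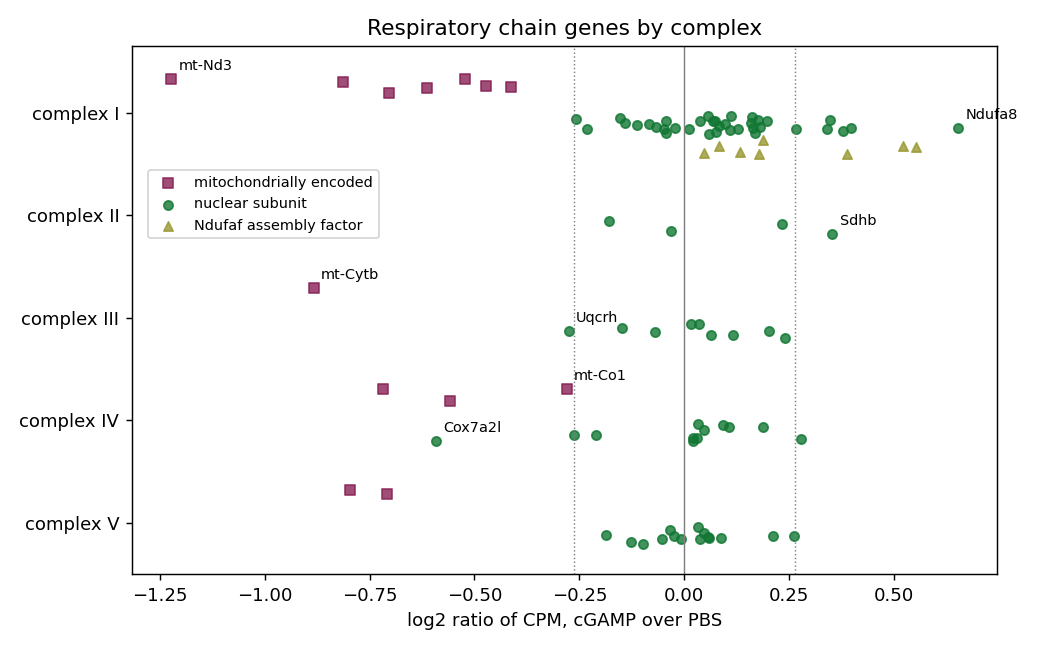
Each point is 1 respiratory chain gene with at least 5 CPM in either library, placed by its log2 ratio of CPM, cGAMP over PBS (x axis), and by complex (y axis). Squares are mitochondrially encoded genes, circles nuclear subunits, triangles Ndufaf assembly factors, vertical scatter within a row has no meaning, and dotted lines mark 1.2-fold. All 13 squares lie left of the lower line, between -1.22 and -0.28, and most circles lie between the lines.

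Every mitochondrially encoded gene was at least 1.2-fold lower in the cGAMP library, and 8 of the 13 were at least 1.5-fold lower. Over the 9509 genes that reached 5 CPM in either library, 27.3% were at least 1.2-fold lower and 7.41% at least 1.5-fold lower, with a median log2 ratio of -0.08. The median over the 13 mitochondrial genes was -0.70. These 13 share 1 genome and its transcripts, and so are not separate observations.

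Complex I has 7 mitochondrially encoded subunits, all parts of its membrane arm. The lowest ratio of all was that of mt-Nd3 (positions 9459 to 9806 of the mitochondrial genome, GRCm38, GENCODE vM21), at 788 CPM in PBS-treated and 338 CPM in cGAMP-treated ECs (log2 ratio -1.22, interval -1.24 to -1.20). mt-Nd2 was at 2033 and 1156 CPM (log2 ratio -0.81), mt-Nd4 at 2590 and 1589 CPM (log2 ratio -0.70), and mt-Nd4l, which is read from the same mRNA as mt-Nd4 and overlaps it, at 256 and 167 CPM (log2 ratio -0.61). The smaller differences of this complex were those of mt-Nd5, at 423 and 294 CPM (log2 ratio -0.52), and of mt-Nd1, at 1728 and 1244 CPM (log2 ratio -0.47). mt-Nd6, the only protein gene on the other strand, was at 51.1 and 38.4 CPM (log2 ratio -0.41, interval -0.48 to -0.34). The 7 genes together gave 1.24 UMIs for each nuclear complex I UMI with PBS and 0.70 with cGAMP.

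In complex III the single mitochondrial gene is mt-Cytb (14145 to 15288), cytochrome b, which was at 4012 and 2176 CPM (log2 ratio -0.88, interval -0.89 to -0.87). Its UMIs were 1.58 for each nuclear complex III UMI with PBS and 0.86 with cGAMP, the largest relative difference among the 4 complexes, at 1.84-fold. The 3 catalytic core subunits of complex IV differed among themselves. mt-Co3 was at 7819 and 4752 CPM (log2 ratio -0.72) and mt-Co2 at 6678 and 4538 CPM (log2 ratio -0.56). mt-Co1 (5328 to 6872), which carries the oxygen-binding haem and copper, was at 6896 and 5681 CPM (log2 ratio -0.28, interval -0.29 to -0.27), the smallest difference of the 13. It was the only mitochondrial gene that alternatives took under 1.2-fold. The smallest difference was -0.16, in cells with at most 5% mitochondrial UMIs, a limit set on the mitochondrial share itself. Median-of-ratios scaling, which adds 0.08 to every log2 ratio, took it under 1.2-fold as well. Complex IV accordingly showed the smallest difference between the genomes, with 3.51 and 2.45 mitochondrial UMIs per nuclear UMI, 1.43-fold.

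In complex V mt-Atp6, the subunit a of the proton channel, was at 11674 and 7144 CPM (log2 ratio -0.71), and mt-Atp8, whose reading frame overlaps that of mt-Atp6 on the same mRNA, at 167 and 96.4 CPM (log2 ratio -0.80). The complex had 1.81 mitochondrial UMIs per nuclear UMI with PBS and 1.09 with cGAMP. UMIs within the shared stretches of mt-Atp8 with mt-Atp6 and of mt-Nd4l with mt-Nd4 cannot be given to either gene with certainty, and nuclear copies of mitochondrial sequence can take or remove reads for any of the 13.

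The composition of the mitochondrial UMIs differed as well. mt-Co1 made up 15.3% of them in PBS-treated and 19.4% in cGAMP-treated ECs. mt-Nd3 went the other way, from 1.75% to 1.16%, and so did mt-Cytb, from 8.89% to 7.45%, and mt-Nd2, from 4.51% to 3.96%. mt-Atp6 held the largest share in both libraries, 25.9% and 24.5%. The log2 ratio of these shares ran from -0.60 for mt-Nd3 to 0.35 for mt-Co1, and it did not rise or fall steadily along the genome, since mt-Nd1, mt-Co1 and mt-Nd5 had higher shares and mt-Nd2, mt-Nd3 and mt-Cytb, which lie among and after them, lower ones.

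**Figure D2:**
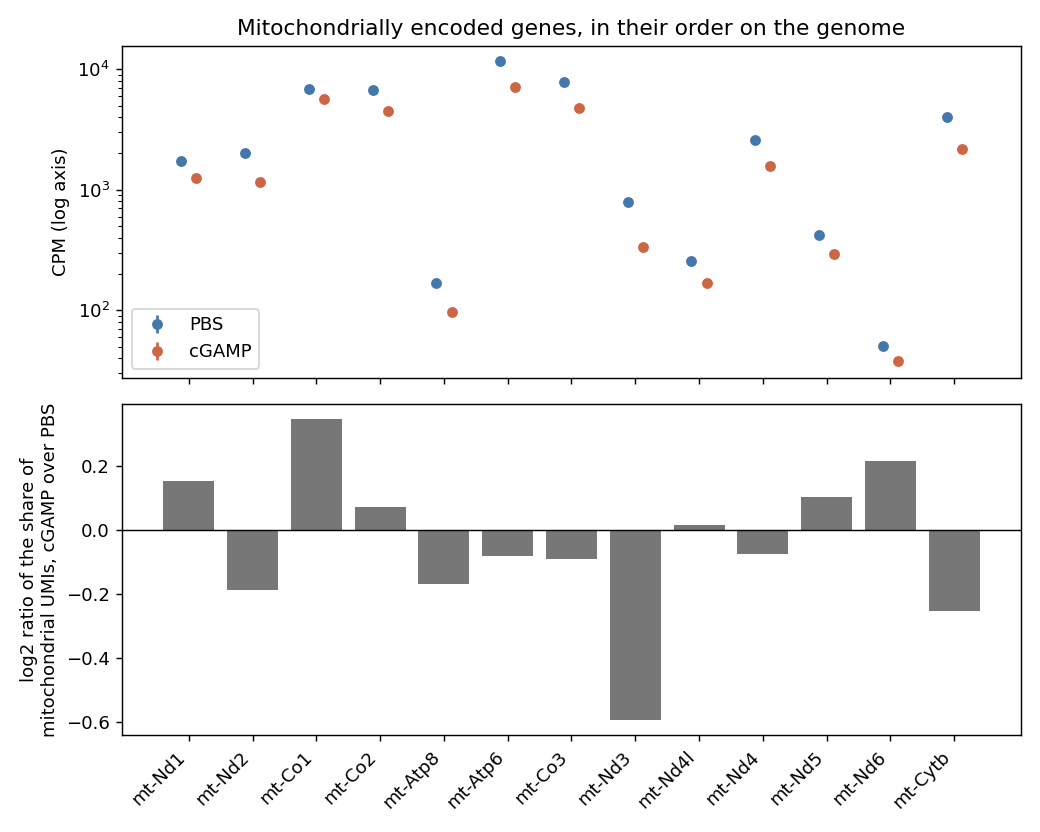
Upper panel, CPM of the 13 mitochondrially encoded genes on a log axis in the PBS and the cGAMP library, with 95% Poisson intervals that are smaller than the points, in the order of the genes on the genome. Lower panel, log2 ratio, cGAMP over PBS, of each gene's share of all mitochondrial UMIs, with bars starting at 0, where mt-Co1 stands highest at 0.35 and mt-Nd3 lowest at -0.60.

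The difference was spread over the cells and not carried by a few. The mitochondrial share per cell had a median of 4.49% in PBS-treated ECs, with 80% of cells between 3.12% and 6.61%, and a median of 2.87% in cGAMP-treated ECs, with 80% of cells between 1.87% and 4.42%. Shares above 5% were found in 855 of 2517 PBS-treated cells and in 92 of 1340 cGAMP-treated cells. The authors had removed cells above 10% mitochondrial UMIs, and 37 kept cells of the PBS library and 5 of the cGAMP library lay between 9% and 10%. Cells without any mitochondrial UMI numbered 1 and 2. The nuclear share per cell had medians of 2.15% and 2.25%, and the 2 ranges of the central 80% of cells, 1.70% to 2.66% and 1.85% to 2.60%, overlapped almost entirely.

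Cells of the cGAMP library held more UMIs, and the comparison was therefore repeated among cells of like depth. In cells under 10000 UMIs the mitochondrial share was 4.17% in PBS-treated (182 cells) and 3.37% in cGAMP-treated ECs (56 cells). From 10000 to 20000 UMIs it was 5.23% and 3.74%, from 20000 to 40000 UMIs 4.71% and 3.17%, from 40000 to 60000 UMIs 4.43% and 2.83%, and in deeper cells 4.22% and 2.80%. It was lower in the cGAMP library in all 5 bins. Within a library deeper cells had slightly lower shares, with a Spearman correlation across cells between log10 UMIs and mitochondrial percent of -0.18 over 2517 PBS-treated and -0.16 over 1340 cGAMP-treated cells, measures that share the cell's UMI total. mt-Co1 took 14.4% to 16.1% of the mitochondrial UMIs over the 5 bins of the PBS library and 18.8% to 19.8% over those of the cGAMP library, which did not overlap. Across cells, mitochondrial and nuclear members, each per other UMI of the cell, were hardly related, with Spearman correlations of 0.01 and 0.14.

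**Figure D3:**
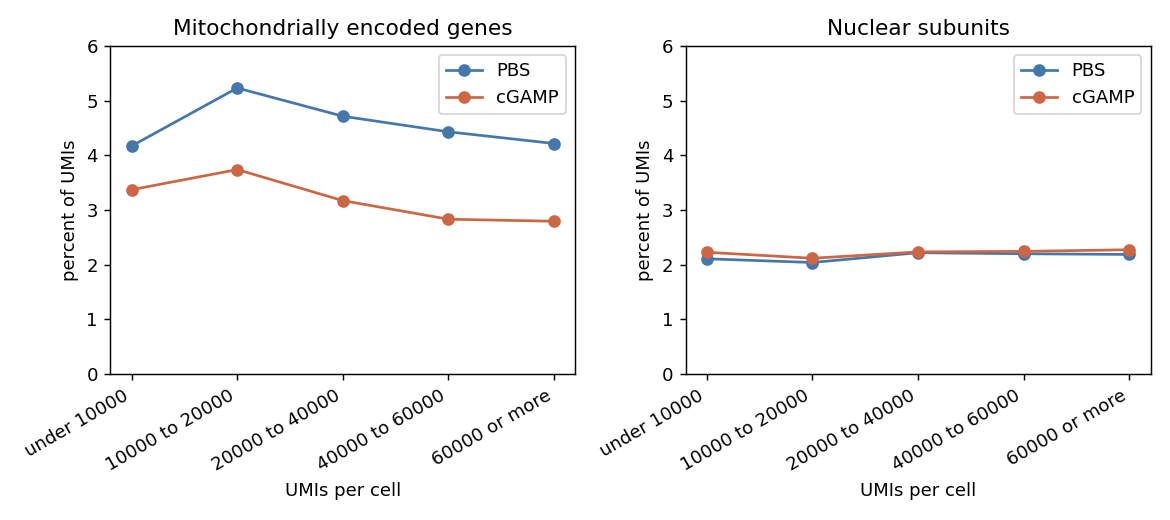
Percent of UMIs from mitochondrially encoded genes (left) and from nuclear subunits (right) in cells binned by UMIs per cell (x axis), with 1 line for each library and both y axes from 0. The mitochondrial line of the cGAMP library lies below that of the PBS library in every bin, at 2.80% to 3.74% against 4.17% to 5.23%, whereas the nuclear lines run at 2.04% to 2.28%.

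Of the 80 nuclear subunits, 76 reached 5 CPM in either library. Of these, 50 were higher and 26 lower in cGAMP-treated ECs, where 3840 of the 9509 genes were higher and 5669 lower. The nuclear subunits had a median log2 ratio of 0.05 (interval of the median 0.02 to 0.09), beside -0.08 over all genes. Only 8 were at least 1.2-fold higher, or 10.5%, where 15.2% of all genes were. At least 1.2-fold lower were 2, or 2.63%, where 27.3% of all genes were. These counts depended on the scaling and the cells, with 5 to 14 higher and 1 to 5 lower over the alternatives, and with 14 higher and 1 lower under median-of-ratios scaling. At 1.5-fold there was 1 gene in each direction, Ndufa8 and Cox7a2l, where 4.53% of all genes were higher and 7.41% lower.

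In complex I, which has the most subunits, 25 of 36 were higher, with a median log2 ratio of 0.08 and a summed share of 0.636% and 0.687% of UMIs. At least 1.2-fold higher were 6, or 16.7%, close to the 15.2% of all genes. Ndufa8 (chromosome 2, 36036326 to 36049406), an accessory subunit on the intermembrane space side, was at 311 CPM in PBS-treated and 489 CPM in cGAMP-treated ECs (log2 ratio 0.65, interval 0.63 to 0.68), the highest ratio among the measured nuclear subunits. Ndufs3 (chromosome 2, 90894634 to 90904827), a core subunit of the peripheral arm, followed at 93.3 and 123 CPM (log2 ratio 0.40, interval 0.35 to 0.44). The other 4 were Ndufa12, Ndufab1, Ndufs7 and Ndufs4, with log2 ratios of 0.27 to 0.38. They are named outside the rule for named genes, after their values were seen. At the other end stood 2 accessory subunits, Ndufv3, at 122 and 102 CPM (log2 ratio -0.26), and Ndufa6, at 158 and 135 CPM (log2 ratio -0.23).

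Complex II oxidises succinate and belongs also to the citric acid cycle. Its 4 subunits divided evenly. Sdhb, the iron-sulphur subunit, was at 107 and 137 CPM (log2 ratio 0.35, interval 0.31 to 0.39) and Sdhd, a membrane anchor, at 93.4 and 110 CPM (log2 ratio 0.23). Sdha, the flavoprotein, was at 75.1 and 66.3 CPM (log2 ratio -0.18), and Sdhc, the other anchor, at 60.7 and 59.4 CPM (log2 ratio -0.03, interval -0.09 to 0.03).

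In complex III, 6 of 9 subunits were higher and 3 lower, the median log2 ratio was 0.03, and their sum was 0.254% of UMIs in both libraries. Cyc1, cytochrome c1, was at 110 and 130 CPM (log2 ratio 0.24) and Uqcrb at 456 and 524 CPM (log2 ratio 0.20). Uqcrh, the hinge protein, was the single member past 1.2-fold, at 548 and 452 CPM (log2 ratio -0.28, interval -0.30 to -0.25), followed by Uqcr11 at 335 and 303 CPM (log2 ratio -0.15).

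Complex IV held the subunit with the lowest ratio. Cox7a2l (chromosome 17, 83501918 to 83517330), which encodes a relative of Cox7a2 studied as a supercomplex assembly factor and of which C57BL/6 mice carry a short form, was at 368 CPM in PBS-treated and 244 CPM in cGAMP-treated ECs (log2 ratio -0.59, interval -0.62 to -0.56). Cox7a2 itself, the usual subunit in this position, was at 460 and 490 CPM (log2 ratio 0.09). Cox4i1, the common form of the regulatory subunit 4, was at 710 and 592 CPM (log2 ratio -0.26), just short of 1.2-fold. Its annotated span overlaps that of Gm20388 on the same strand. Cox6a1 was at 273 and 236 CPM (log2 ratio -0.21). On the higher side were Cox5b, at 380 and 461 CPM (log2 ratio 0.28), and Cox7c, at 694 and 790 CPM (log2 ratio 0.19). Cox6b1 (log2 ratio 0.11), Cox8a (0.03) and Ndufa4 (0.02) lay close to 0. Of the 12 measured subunits, 9 were higher and 3 lower, and their sum was 0.610% and 0.612% of UMIs.

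The ATP synthase subunits divided into 8 higher and 7 lower, none past 1.2-fold. Atp5g1, Atp5g2 and Atp5g3 encode the same mature subunit c of the proton-driven ring. Atp5g1 was at 364 and 436 CPM (log2 ratio 0.26), Atp5g3 at 240 and 278 CPM (log2 ratio 0.21) and Atp5g2 at 618 and 639 CPM (log2 ratio 0.05). The subunits of the catalytic head were on the lower side, Atp5a1 at 364 and 320 CPM (log2 ratio -0.19) and Atp5b at 604 and 553 CPM (log2 ratio -0.13). One further row, Atp5o.1, carried a suffix given to repeated symbols, and which of the 2 genes named Atp5o it stands for is not certain.

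The 5 members under 5 CPM in both libraries were Atp5s and 4 alternative subunits, which in other tissues depend on muscle type, testis or oxygen. Cox7a1, the heart and muscle form, was read by 109 UMIs (1.18 CPM) in PBS-treated and 39 UMIs (0.615 CPM) in cGAMP-treated ECs. Ndufa4l2, which hypoxia raises in many cells, had 182 and 72 UMIs (1.98 and 1.14 CPM). Cox4i2, the lung and hypoxia form of subunit 4, had 74 and 38 UMIs (0.804 and 0.600 CPM), whose intervals overlapped, and Cox6b2, the testis form, 199 and 134 UMIs (2.16 and 2.11 CPM). Atp5s had 351 and 272 UMIs (3.81 and 4.29 CPM). Cox6a2 and Cox8b, muscle forms as well, were not among the listed genes.

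Promoters of the members that differed most are shown because nuclear subunits are known to share sites for NRF1, GABP and YY1, factors that tie their transcription to that of mitochondrial genes. RefSeq promoters on GRCm38.p6, from 250 bases before to 50 after the start, were found by symbol for 64 of the 80 nuclear subunits. The letters GCGCANGCG (NRF1) on either strand were in 19 of the 64, or 29.7%, and in 7.03% of the 27025 genes with a promoter. CCGGAAG (GABP) was in 16, or 25.0%, against 9.93%, and AAGATGGCG (YY1) in 7, or 10.9%, against 1.64%. The 27025 genes were not limited to those read in these ECs, and are in this unlike the subunits. A gene counted once if any of its promoters held the letters, the NRF1 letters can match both strands at overlapping positions, and the GABP and YY1 letters can overlap by 3 bases. Of the 8 subunits at least 1.2-fold higher, 1 held the NRF1 letters, 2 those of GABP and 2 those of YY1, and of the 2 lower ones 1 held those of GABP, numbers too small to compare. Below are the 250 bases before the start, 5′ to 3′ and on the minus strand in all 4 cases, for the 2 highest and the 2 lowest measured subunits that have a promoter in the table, with matches to any of the 3 in capitals.
Ndufa8, chr2:36049339-36049588: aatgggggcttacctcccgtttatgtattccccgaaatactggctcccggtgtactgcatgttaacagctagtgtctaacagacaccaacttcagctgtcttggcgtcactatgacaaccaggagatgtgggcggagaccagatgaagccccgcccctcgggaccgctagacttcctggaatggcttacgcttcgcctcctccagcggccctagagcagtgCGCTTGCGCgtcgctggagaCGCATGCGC
Ndufs3, chr2:90904722-90904971: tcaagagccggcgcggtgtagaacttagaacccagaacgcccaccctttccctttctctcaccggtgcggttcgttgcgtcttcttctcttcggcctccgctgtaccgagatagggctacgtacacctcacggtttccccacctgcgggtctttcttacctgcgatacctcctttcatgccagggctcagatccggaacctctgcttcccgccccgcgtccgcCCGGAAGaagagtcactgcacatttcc
Uqcrh, chr4:116075071-116075320: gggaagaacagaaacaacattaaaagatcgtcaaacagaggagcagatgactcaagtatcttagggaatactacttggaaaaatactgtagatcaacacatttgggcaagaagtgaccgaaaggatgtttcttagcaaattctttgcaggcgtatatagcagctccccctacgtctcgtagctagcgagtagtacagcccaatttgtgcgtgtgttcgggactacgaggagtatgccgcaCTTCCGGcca
Cox7a2l, chr17:83514334-83514583: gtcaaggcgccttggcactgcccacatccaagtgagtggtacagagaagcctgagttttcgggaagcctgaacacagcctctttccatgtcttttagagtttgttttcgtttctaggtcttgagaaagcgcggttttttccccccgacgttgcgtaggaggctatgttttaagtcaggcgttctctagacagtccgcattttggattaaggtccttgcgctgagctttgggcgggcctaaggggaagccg

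The Ndufa8 promoter held 2 matches to the NRF1 letters, that of Ndufs3 1 match to the GABP letters in this stretch and 1 more in the 50 bases after it, and that of Uqcrh 1 match to the GABP letters, while none was found in that of Cox7a2l. The Cox7a2l window lies inside the annotated span of this minus-strand gene, which reaches to 83517330. The bases before that annotated end were not searched. A match describes letters and not binding, and the absence of a match says only that these letters are not in the window.

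The Ndufaf genes, whose products help to assemble complex I and are not part of it, were all higher in cGAMP-treated ECs, 8 of 8, with a median log2 ratio of 0.18 and 3 at least 1.2-fold higher, where 15.2% of all genes were, although Ndufaf1, Ndufaf2, Ndufaf3 and Ndufaf5 were below 0, the lowest at -0.059, once cells were thinned to 5000 UMIs, and Ndufaf3 and Ndufaf2 each turned below 0 under 1 further alternative. The range ran from Ndufaf3, at 25.4 and 26.2 CPM (log2 ratio 0.05, interval -0.05 to 0.14), to Ndufaf6, at 14.2 and 20.8 CPM (log2 ratio 0.55). Ndufaf4 was at 38.1 and 54.6 CPM (log2 ratio 0.52). For the counts of direction in these lists, 3840 of the 9509 genes were higher and 5669 lower. A like pattern was seen in 34 other measured assembly factors of complexes I to V, among them factors that insert haem and copper, 29 higher and 5 lower, median 0.20, with 11 at least 1.2-fold higher, or 32.4%. Cox18, which inserts mt-Co2 into the membrane, was at 40.6 and 64.3 CPM (log2 ratio 0.66) and Sco2, a copper chaperone, at 25.8 and 39.8 CPM (log2 ratio 0.63), while Cox20 was at 48.5 and 39.5 CPM (log2 ratio -0.29) and Ttc19 at 27.2 and 22.5 CPM (log2 ratio -0.27).

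The nuclear genes of the mitochondrial ribosome, which translates the 13 mitochondrial mRNAs, were higher in 72 of 77 cases, where 3840 of the 9509 genes were. Their median was 0.22, and 34 were at least 1.2-fold higher, or 44.2%, where 15.2% of all genes were. Mrpl47 was at 12.1 and 19.0 CPM (log2 ratio 0.65) and Mrps28 at 69.3 and 105 CPM (log2 ratio 0.60), against Mrpl34 at 155 and 125 CPM (log2 ratio -0.31) and Mrpl43 at 113 and 106 CPM (log2 ratio -0.09). Of 14 measured regulators of respiratory genes and factors that copy, transcribe or handle mitochondrial DNA and RNA, 7 were higher and 7 lower. At least 1.2-fold lower were 4, or 28.6%, where 27.3% of all genes were. At least 1.2-fold higher were 2, or 14.3%, where 15.2% of all genes were. Polg, the mitochondrial DNA polymerase, was at 25.3 and 15.6 CPM (log2 ratio -0.70) and Nrf1 at 23.7 and 18.5 CPM (log2 ratio -0.36). Pnpt1, the mitochondrial polynucleotide phosphorylase and also a known interferon-inducible gene, was at 20.3 and 27.8 CPM (log2 ratio 0.45), and Slirp, which stabilises mitochondrial mRNAs together with Lrpprc, at 106 and 140 CPM (log2 ratio 0.40). Tfam, which packages mitochondrial DNA and starts its transcription, was at 37.2 and 37.4 CPM. The 7 lower genes also held Gabpa, at 25.8 and 20.7 CPM (log2 ratio -0.32), and Tfb2m, at 17.1 and 14.1 CPM (log2 ratio -0.28). Polrmt was at 7.04 and 6.09 CPM (log2 ratio -0.21, interval -0.39 to -0.02), with Esrra at a log2 ratio of -0.17 and Yy1 at -0.07. Ppargc1a, the coactivator of mitochondrial biogenesis, was read by 0 UMIs in PBS-treated and 3 in cGAMP-treated ECs. Tfam, Lrpprc, Ppargc1a, Gabpa, Tfb2m, Polrmt, Esrra and Yy1 are named outside the rule for named genes.

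Cycs, the cytochrome c that carries electrons between complexes III and IV, was at 222 and 330 CPM (log2 ratio 0.57), the highest of 14 electron carriers and citric acid cycle genes, of which 7 were higher and 7 lower. Idh3a was at 54.5 and 67.8 CPM (log2 ratio 0.32), Ogdh at 75.0 and 58.5 CPM (log2 ratio -0.36) and Pdha1 at 44.9 and 36.2 CPM (log2 ratio -0.31). Of 7 measured genes of hypoxia and glycolysis, 6 were lower and 4 at least 1.2-fold lower, with a median of -0.34, where 5669 of the 9509 genes were lower and 27.3% at least 1.2-fold lower. Pfkp was at 120 and 71.0 CPM (log2 ratio -0.75) and Bnip3, a hypoxia-induced gene of mitochondrial clearance, at 24.7 and 16.9 CPM (log2 ratio -0.55). Ldha, at 702 and 704 CPM (log2 ratio 0.01), and Pgk1, at 441 and 421 CPM (log2 ratio -0.07), were close to level.

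**Figure D4:**
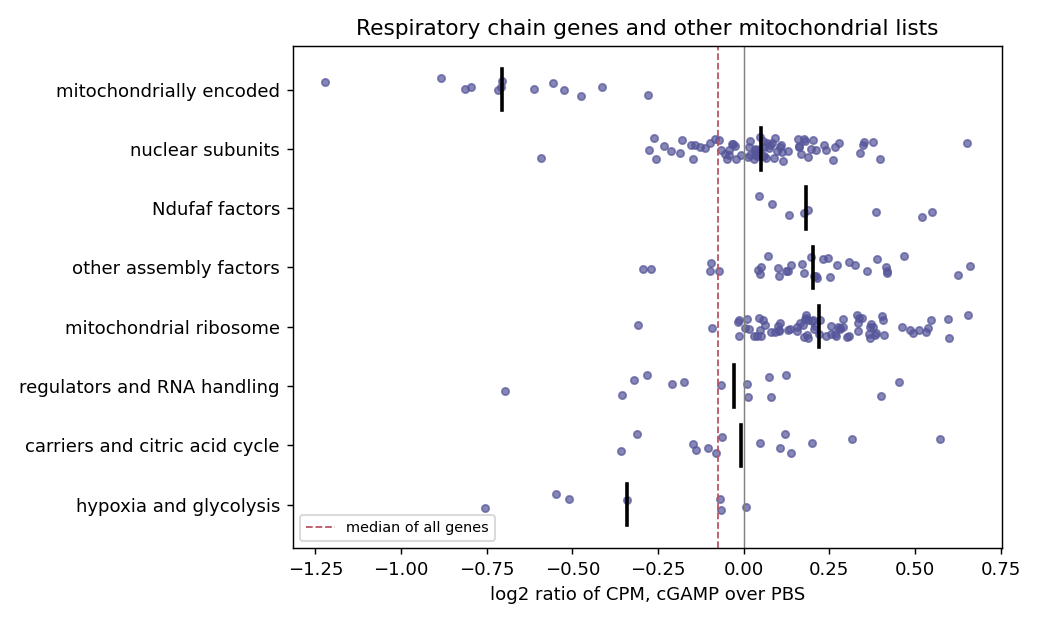
Log2 ratio of CPM, cGAMP over PBS (x axis), for each gene with at least 5 CPM in either library, by list (y axis), with a bar at the median of the list and a dashed line at the median of all genes, -0.08. The mitochondrially encoded genes lie to the left with a median of -0.70, the nuclear subunits around 0, and the assembly factors and the mitochondrial ribosome to the right with medians of 0.18 to 0.22.

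To see whether a different mix of EC subpopulations went along with these values, the cells were clustered again without the respiratory chain genes and without genes that differed 2-fold between the libraries. This gave 8 clusters, named from markers where these allowed it. They were a tip-like cluster led by Gal and Chga (749 PBS-treated and 314 cGAMP-treated cells), an arterial-like cluster led by Gja5 and Gja4 (539 and 228), a stalk-like cluster led by Ackr1 and Selp (368 and 337) and a proliferative-like cluster led by Ube2c and Cenpf (497 and 182). A further cluster with 8 of 13 arterial markers raised was led by Slc6a6 and Lpl (63 and 55), and another with 7 of 14 tip-like markers raised by the hypoxia-induced Bnip3 and by Ankrd1 (52 and 26). Clusters led by Ung and Hells, genes of DNA repair and replication (203 and 147), and by Igfbp5 and Ctsh (46 and 51) were left unnamed. The Igfbp5 and Ctsh cluster had 10 of 11 stalk-like and 4 of 13 arterial markers raised, against 8 of 11 stalk-like markers in the cluster named stalk-like, but its 10 leading genes held the arterial marker Mgp and no stalk-like marker. Rebuilt clusters need not be those of the study.

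The mitochondrial share was lower in the cGAMP library in all 8 clusters, and each of the 13 genes was lower in each cluster. The log2 ratio ran from -0.94 in the Bnip3 and Ankrd1 cluster and -0.77 in the stalk-like cluster to -0.53 in the proliferative-like cluster. Within the PBS library the clusters ranged from 3.10% mitochondrial UMIs in the Bnip3 and Ankrd1 cluster to 4.96% in the stalk-like and 5.22% in the Igfbp5 and Ctsh cluster. In the cGAMP library the other 7 clusters lay between 2.85% and 3.35% and the Bnip3 and Ankrd1 cluster at 1.62%, so that every cluster of the cGAMP library but that of Igfbp5 and Ctsh lay under the lowest cluster of the PBS library. The nuclear share was higher in 7 of 8 clusters, at log2 ratios of 0.02 to 0.20, and in the Ung and Hells cluster it was 2.36% in both libraries (log2 ratio -0.003, interval -0.01 to 0.01). With cluster proportions held equal the log2 ratio of the mitochondrial share was -0.63, as in the libraries as a whole.

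The Bnip3 and Ankrd1 cluster stood apart in several members. It had the lowest nuclear share in both libraries, 1.60% in PBS-treated and 1.75% in cGAMP-treated ECs, where the other clusters of the 2 libraries had 1.96% to 2.36%. Its mt-Co1 share of mitochondrial UMIs was the highest, 21.1% and 27.7%, where the other clusters had 14.7% to 17.4% in the PBS and 17.3% to 22.1% in the cGAMP library. Ndufa4l2 was at 19.8 CPM (31 UMIs) and 9.88 CPM (11 UMIs) there, against 0 to 12.2 CPM and 0 to 3.55 CPM elsewhere, and Cox7a1 at 5.75 CPM (9 UMIs) and 6.29 CPM (7 UMIs), against 0 to 1.74 CPM and 0.203 to 0.881 CPM elsewhere. Cox6b2 had 0 UMIs in this cluster and was highest in the Igfbp5 and Ctsh cluster, at 15.5 CPM (16 UMIs) and 7.76 CPM (11 UMIs), followed by the stalk-like cluster, at 8.39 CPM (76 UMIs) and 4.87 CPM (72 UMIs). These counts are small, and the clusters were made from the same cells.

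**Figure D5:**
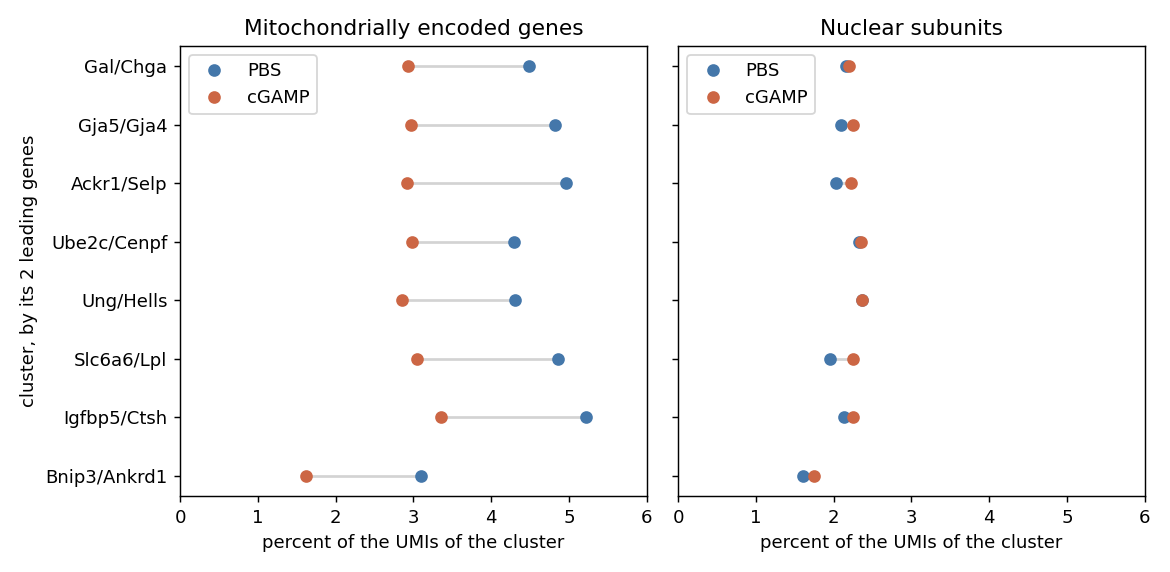
Percent of the UMIs of each cluster from mitochondrially encoded genes (left) and nuclear subunits (right), on x axes from 0 to 6%, with clusters named by their 2 leading genes (y axis), 1 point for each library and a grey line joining the 2. In the left panel all 8 cGAMP points lie left of their PBS points, with the Bnip3/Ankrd1 cluster lowest at 3.10% and 1.62%, and in the right panel all points lie between 1.60% and 2.36%.

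Composition and single subunits had the same direction in most clusters. The mt-Co1 share of mitochondrial UMIs was higher and the mt-Nd3, mt-Cytb and mt-Nd2 shares lower in the cGAMP library in all 8. Cox7a2l was lower in all 8, at log2 ratios of -0.89 to -0.36, and ranged in the PBS library from 268 CPM in the Ung and Hells cluster to 504 CPM in the Slc6a6 and Lpl cluster. Ndufa8 was higher in all 8, by 0.27 to 0.85, as were Ndufs3, Cox5b, Sdhb, Cyc1 and Atp5g1, while Cox4i1 and Ndufv3 were lower in all 8. Uqcrh was lower in 7, Sdha in 6 and Cox6a1 in 7 of 8. By complex, the summed nuclear subunits of complexes I and II were higher in all 8 clusters, those of complex III in 6, of complex V in 5 and of complex IV in 4.

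In sum, leucocyte markers stood higher and fibroblast, mural, tumour and erythroid markers lower in the cGAMP library, as given above. The fibroblast marker Dcn went the other way, at 0.782 and 1.22 CPM. Among cells that held UMIs of Pecam1 and Cdh5 but lacked Ptprc, 2481 of 2517 and 1304 of 1340, the log2 ratio of the mitochondrial share was -0.63, that of the nuclear share 0.04 and the median over the nuclear subunits 0.05. Ptprc was read by only 23 and 38 UMIs in the 2 libraries, so that this filter dropped few cells. It did not use S100a8 (31 and 423 UMIs) or S100a9 (25 and 631 UMIs). A part of leucocyte RNA in these values was not tested. Among cells with at most 5% mitochondrial UMIs, 1662 and 1248, the log2 ratio of the mitochondrial share was -0.48. This limit is set on the share itself and left out 855 PBS-treated and 92 cGAMP-treated cells. A smaller difference therefore follows from the filter.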

How the data were processed

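ECs sorted from 1 tumour per group were sequenced by 3' droplet scRNA-seq, with kit version 3 per the methods and 2 per the labels. The authors aligned reads to mm10 with Cell Ranger 3.0.0, used Seurat 3.1.1, removed cells with under 500 genes or over 10% mitochondrial UMIs, genes in under 3 cells and clusters without Pecam1. The deposited values are on the natural log scale (ln), as the logarithm of 1 plus UMIs per 10000. Here the values were turned back into UMI counts, and 100% came within 0.01 of a whole number. The depth is 92081146 UMIs in the PBS and 63366746 in the cGAMP library.

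UMIs were summed per library and scaled to CPM. Members at or above 5 CPM in either library, 97 of 102, entered counts and medians, and genes were counted at 1.2-fold and 1.5-fold. With 1 library per group no test was run. Intervals (95%) are exact for Poisson counts or ratios of them and cover counting error only, and those of medians are order statistics. The functions were tested on simulated data. Named genes were the 13 mitochondrial genes, per complex the 2 highest and 2 lowest ratios at 20 CPM or more, the Sdh genes, Cyc1, subunits with alternative forms, members under 5 CPM, and the 2 highest and 2 lowest of each list. Members and lists were chosen with earlier results of these data known. Clusters were rebuilt with Seurat 5.3.0 in R 4.3.3 (2500 variable genes, of which 1791 were kept, 30 principal components, resolution 0.5), without removing doublets. A marker counted as raised at 2-fold with 5 CPM added, and a name needed 3 raised markers, the most of any class, and most markers among the 10 leading genes, thresholds set after the clusters were seen. Coordinates are GENCODE vM21 (GRCm38). Alternatives were other scalings, cell filters, depths, minimums and resolutions. Python 3.11.15, scipy 1.17.1 and matplotlib 3.10.9 were used.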

Additional observations from a re-analysis of the deposited data

Results flagged for a closer look

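In 3 complexes the summed nuclear subunits differed in direction between clusters by more than counting error, with 1 library per cluster and group, so that the difference between clusters was not tested. For complex III the log2 ratio of cGAMP over PBS was -0.0406 in the Ung and Hells cluster and up to 0.0817, in the Bnip3 and Ankrd1 cluster, with intervals above 0 in 3 clusters. For complex IV it was lowest, at -0.0513, in the Igfbp5 and Ctsh cluster and highest, at 0.13, in the Slc6a6 and Lpl cluster, with intervals under 0 in 3 clusters and above 0 in 3. For complex V it was -0.0368 in the Ung and Hells cluster and up to 0.22 in the Slc6a6 and Lpl cluster, with intervals above 0 in 5 clusters.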

How the results depend on the processing

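No paired analysis was possible because each group has 1 library. The log2 ratio of the mitochondrially encoded share of UMIs was below 0 under all 8 alternatives, at -0.65 when scaled to nuclear UMIs, -0.55 with median-of-ratios scaling, -0.61 as a mean over cells, -0.48 in cells with at most 5% mitochondrial UMIs, -0.62 in cells of 20000 to 60000 UMIs and in cells thinned to 5000 UMIs, and -0.63 with cluster proportions held equal. For the mitochondrial to nuclear ratio the last 5 of these gave -0.65, -0.52, -0.64, -0.66 and -0.68. The limit of 5% is set on the mitochondrial share itself, so that a smaller difference follows from that filter. The nuclear respiratory chain share of UMIs stayed above 0, at 0.0185 when scaled to nuclear UMIs, 0.0183 in cells of 20000 to 60000 UMIs, 0.12 with median-of-ratios scaling, 0.0380 in cells with at most 5% mitochondrial UMIs and 0.0470 with cluster proportions held equal, and the median log2 ratio of nuclear subunits reached 0.13 with median-of-ratios scaling, which adds 0.08 to every log2 ratio. Nuclear subunits at least 1.2-fold higher numbered 14 and those lower 1 with median-of-ratios scaling, 5 were higher in cells of 20000 to 60000 UMIs, and 4 were lower when scaled to nuclear UMIs, 1 in cells with at most 5% mitochondrial UMIs, 5 in thinned cells and 5 without a minimum. The ratio was lower in every cluster at all 3 resolutions. Of 26 members past 1.2-fold, 25 kept their sign under all 8 alternatives, and Ndufaf5, at 8.67 and 11.3 CPM, turned to -0.0223 in thinned cells. Of the 71 others, 20 changed sign under some alternative. The cause of these differences was not tested. Scaling to nuclear UMIs and median-of-ratios scaling move the log2 ratios of all genes together. With 1 mouse per group the spread between mice is unknown at any depth.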
